A study of Mus musculus with 2 samples.

Results

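Cells named conventional αβ T cells by the rule below made up 317 of the 14193 barcodes kept as cells in 2 droplet single-cell RNA libraries. Gel50_CS50 held 115 of 7294 and Gel100 held 202 of 6899. The cells were chosen by transcripts counted in each cell. A member had at least 1000 unique molecular identifiers (UMIs, each a counted transcript molecule) with under 20% of them mitochondrial, at least 2 UMIs over Cd3d, Cd3e and Cd3g, and at least 2 over the T cell receptor constant genes Trac, Trbc1 and Trbc2. It had no UMI of Trdc or Cd163l1, which mark γδ T cells, of Foxp3, which marks regulatory T cells, or of Ncr1, which marks natural killer (NK) cells. It also had at most 1 UMI of the macrophage gene Csf1r and under 0.5% of its UMIs in the neutrophil genes S100a8 and S100a9. These genes chose the cells, so their levels are a description only.

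Both groups were female Balb/c mice aged 6 weeks with a circular cranial bone defect of 3.5 mm that held a scaffold without cells, of either Gel50_CS50 or Gel100. The sources used here do not explain the scaffold names. Scaffolds were collected at week 1, and the scaffolds of 5 mice per group were pooled, enzymatically dissociated and sorted for viable cells. Each group is therefore 1 library from 1 pool, with no replicates, so no test between the groups was possible and every 95% interval below covers counting error only.

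αβ T cells recognise peptides on major histocompatibility complex (MHC) molecules through a receptor of an α and a β chain, which signals through the CD3 complex. CD4 T cells help other immune cells with cytokines and CD8 T cells can kill their targets, while some αβ T cells that carry the factor PLZF, the product of Zbtb16, respond quickly without earlier exposure. In bone injury T cells are known as a source of cytokines that act on macrophages and on bone-forming and bone-resorbing cells, among them interferon gamma, interleukin-17 and RANKL. Interferons act on T cells through receptors and STAT proteins and switch on a shared set of antiviral and antigen presentation genes.

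Among promoters of such interferon-stimulated genes, those of the genes below with the lowest Gel50_CS50 over Gel100 ratio that hold an interferon-response motif are shown, since all 30 genes of this group stood lower in Gel50_CS50 members. Each runs from 250 bases before to 50 bases after the start site on the gene's strand (RefSeq, GRCm38.p6), in lower case. Capitals mark the motif searched on both strands, GAAA, then 2 bases of any kind, then GAAA, which reads TTTC, 2 bases, TTTC on the other strand.
Ifit3, chr19:34583279-34583578, plus strand: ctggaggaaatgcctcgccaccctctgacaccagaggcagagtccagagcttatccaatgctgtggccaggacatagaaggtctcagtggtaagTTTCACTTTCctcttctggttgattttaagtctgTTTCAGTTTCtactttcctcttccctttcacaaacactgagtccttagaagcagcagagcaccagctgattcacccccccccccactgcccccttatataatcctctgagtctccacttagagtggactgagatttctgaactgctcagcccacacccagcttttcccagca
Ifit1, chr19:34640639-34640938, plus strand: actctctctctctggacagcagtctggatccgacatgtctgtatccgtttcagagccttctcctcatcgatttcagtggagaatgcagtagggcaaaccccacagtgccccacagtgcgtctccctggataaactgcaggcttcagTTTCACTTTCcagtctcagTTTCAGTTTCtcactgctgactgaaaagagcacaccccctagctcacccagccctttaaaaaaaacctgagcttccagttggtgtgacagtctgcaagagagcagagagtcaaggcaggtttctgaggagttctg
Stat2, chr10:128270248-128270547, plus strand: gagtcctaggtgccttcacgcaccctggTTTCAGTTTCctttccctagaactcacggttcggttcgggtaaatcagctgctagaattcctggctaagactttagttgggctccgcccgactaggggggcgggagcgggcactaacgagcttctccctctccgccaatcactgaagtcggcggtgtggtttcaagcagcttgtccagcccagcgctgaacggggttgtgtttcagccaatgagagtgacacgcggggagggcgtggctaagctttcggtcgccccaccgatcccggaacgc
Irgm1, chr11:48871371-48871670, minus strand: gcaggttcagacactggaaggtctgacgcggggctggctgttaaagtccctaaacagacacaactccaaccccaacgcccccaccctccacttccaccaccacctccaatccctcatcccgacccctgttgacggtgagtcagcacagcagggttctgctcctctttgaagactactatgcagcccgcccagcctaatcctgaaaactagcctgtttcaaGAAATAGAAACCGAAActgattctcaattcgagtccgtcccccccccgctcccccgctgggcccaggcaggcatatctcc

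The Ifit3, Ifit1 and Irgm1 windows hold 2 such matches each, which overlap in Irgm1, and the Stat2 window holds 1. Of 30 genes on the interferon-stimulated list, 22 had a promoter in the table and 14 of these (63.6%) held the motif, against 3.99% of all 27025 genes in the table (3.44% of its 32851 promoters). A match is a description of the letters and not evidence of a bound factor.

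The marker genes Cd3e, Trbc2 and Trac belong to the rule, so their levels describe the choice and are no check of the label. Cd4 and Cd8a, which the rule did not use, are given with the coreceptor subsets below. Cd3e, the CD3 epsilon chain, stood at 460.1 counts per 1e+06 summed UMIs (CPM) in Gel50_CS50 and 522 CPM in Gel100, and was seen in 109 of 115 and 195 of 202 members. Trbc2 stood at 781 and 806 CPM, and Trac at 326 and 390.3 CPM. Trac was at 0 in 16 Gel50_CS50 and 22 Gel100 members, which entered through β chain transcripts. Some genes that the rule did not use also differed between members and cells with Ncr1. They were named by that ratio in these same data, and the cells with Ncr1 were limited to at most 1 CD3 UMI. Their levels are thus a description too and no check of the label. Themis, a thymocyte selection gene, stood at 741 and 899.7 CPM in members. In cells with Ncr1 and at most 1 CD3 UMI it stood at 1.53 and 0.31 CPM. Bcl11b, a factor that keeps T cell identity, stood at 421 and 434 CPM in members and at 8.89 and 7.13 CPM in the Ncr1 cells. At least 1 UMI of Klrb1c, Klra8, Klra4 or Klre1, genes of NK cells that some αβ T cells also use, was present in 6 Gel50_CS50 and 19 Gel100 members. Zbtb16 was seen in 44 of 115 and 68 of 202 members, and a γ chain constant gene in 31 and 57. The name conventional is therefore that of the rule and may not hold for every member, which was not tested.

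At the limits of the rule, 4 Gel50_CS50 and 9 Gel100 members had exactly 2 receptor UMIs, while 2 and 8 cells that met every other condition had 1. Exactly 2 CD3 UMIs were held by 2 and 4 members, against 1 and 7 cells outside with 1. Exactly 1 Csf1r UMI was held by 10 and 8 members, and 2 Csf1r UMIs kept 1 and 1 cell out. A single Foxp3 UMI kept 5 and 7 cells out, a single Trdc UMI 1 and 3 cells, a single Cd163l1 UMI 1 and 4 cells, and a single Ncr1 UMI 2 and 10 cells. Members held a median of 9474 UMIs (3450 to 31189) in Gel50_CS50 and 8620.5 (1011 to 50221) in Gel100, and 1197628 and 1972916 UMIs in all. Of 24 barcodes found in both libraries none was a member.

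αβ T cells were a smaller share of the Gel50_CS50 library. They made up 1.58% of kept cells in Gel50_CS50 (1.30 to 1.89%, exact Clopper-Pearson) and 2.93% in Gel100 (2.54 to 3.35%), and the intervals did not overlap. Cells with Ncr1 made up 2.99% (2.61 to 3.41%) and 7.54% (6.93 to 8.19%). Cells with Trdc or Cd163l1 made up 1.01% (0.797 to 1.27%) and 1.90% (1.59 to 2.25%). Cells that met the T cell rule except for carrying Foxp3 made up 0.823% (0.628 to 1.06%) and 0.913% (0.702 to 1.17%), which overlap. Foxp3 cells were thus 34.3% (27.3 to 41.8%) of Foxp3 cells and members together in Gel50_CS50 and 23.8% (18.8 to 29.4%) in Gel100. A share of a library depends on all other cells in it, so fewer αβ T cells and more of other cells cannot be told apart.

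The coreceptor genes divided the members into 3 main subsets in both libraries. Cells with Cd4 and neither Cd8a nor Cd8b1 (Cd4 cells below) were 38 of 115 (33.0%, 24.6 to 42.4%) in Gel50_CS50 and 78 of 202 (38.6%, 31.9 to 45.7%) in Gel100. Cells with Cd8a or Cd8b1 and no Cd4 (Cd8 cells) were 37 (32.2%, 23.8 to 41.5%) and 51 (25.2%, 19.4 to 31.8%). Neither was seen in 38 (33.0%) and 70 (34.7%) members, and both in 2 and 3. All these intervals overlap between the libraries. Coreceptor detection depends on depth: thinned to 2000 UMIs per cell, 19.1% and 19.7% of members were Cd4 cells, 19.1% and 21.7% Cd8 cells, and 61.7% and 58.1% showed neither. The thinned shares left out 0 Gel50_CS50 and 4 Gel100 members that had fewer UMIs. As a measure of free RNA, Cd4 was seen in 4.38% and 5.34% of macrophage-like cells and in 0.509% and 0.870% of neutrophil-like cells. Cd8a was seen in 0.502% and 0.531%, and Cd8b1 in 1.19% and 1.12%, of macrophage-like cells, whose median depth was 19611 and 17599 UMIs. Among Foxp3 cells, Cd8b1 was seen in 11 of 60 (18.3%) and 5 of 63 (7.94%), and Cd8a in 1 and 0. Cd8b1 was seen in 4.05% and 3.82% of cells with Trdc or Cd163l1, and in 1.38% and 2.50% of Ncr1 cells. A Cd8 call that rests on Cd8b1 alone is therefore less certain.

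**Figure D1:**
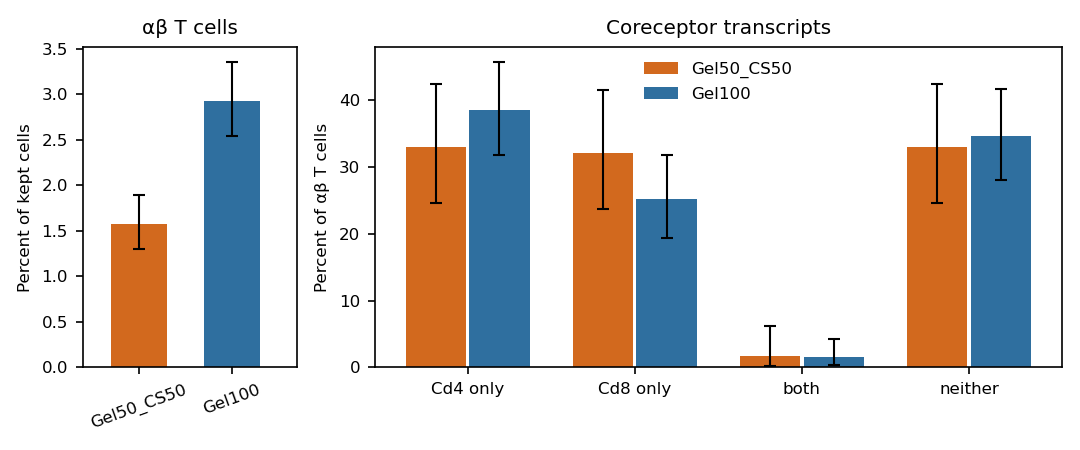
Left, αβ T cells as a percentage of kept cells; right, αβ T cells by coreceptor transcripts as a percentage of the 115 Gel50_CS50 and 202 Gel100 members. Bars are shares and lines exact 95% intervals of counting error; the intervals are apart on the left (1.58% and 2.93%) and overlap for every coreceptor subset on the right.

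Between the libraries, most genes of the members stood at close levels. UMIs were summed over the members of a library and scaled to CPM, and the 6368 genes averaging 20 CPM or more were compared. Over these genes the log2 ratio of Gel50_CS50 over Gel100 had a median of -0.02 and a central 95% range of -0.82 to 0.70. Above 1.5-fold lay 255 genes (4%) and below 1/1.5 lay 364 (5.72%). Intervals wholly beyond these limits were held by 45 (0.707%) and 63 genes (0.989%).

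The interferon-stimulated genes were lower in Gel50_CS50 T cells, all 30 of them. Of these 30, 20 lay below 1/1.5 and 0 above 1.5-fold, beside 5.72% and 4% of all genes, with a median log2 ratio of -0.69, beside -0.02 over all genes. For 29 the interval excluded equality; that of Rsad2, an antiviral enzyme, reached it (-0.29, -0.58 to 0.00). Ly6a, the surface protein Sca-1, differed most, at 126 CPM in Gel50_CS50 and 611 CPM in Gel100, a log2 ratio of -2.28 (-2.53 to -2.03). It was seen in 41 of 115 members (35.7%, 26.9 to 45.1%) against 136 of 202 (67.3%, 60.4 to 73.7%), and thinned to 2000 UMIs in 13.9% against 48.5%. The share of neutrophil-like cells with a Ly6a UMI was 9.67% and 11.7%, at a median of 4401.5 and 4070 UMIs. Ly6a has close copies in the Ly6 family, and how shared reads were counted is not stated, so its level is uncertain.

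A signal transducer and the abundant genes of the list were among them. Stat2, which carries type I interferon signals to the nucleus, stood at 87.7 CPM in Gel50_CS50 and 149.5 CPM in Gel100 (-0.77, -1.11 to -0.44), and Irf7, which amplifies type I interferon production, at 142 and 229 CPM (-0.69). Ifi27l2a, the highest of the list, stood at 1320.1 and 2533 CPM (-0.94, -1.02 to -0.86). Among antiviral effectors, Ifit3 stood at 77.7 and 186 CPM (-1.26, -1.60 to -0.93) and Ifit1 at 160.3 and 291 CPM (-0.86). The GTPase gene Gbp6, known for defence against intracellular microbes, stood at 86.0 and 169 CPM (-0.97), and Usp18, a brake on interferon signalling, at 78.5 and 145 CPM (-0.89). The smallest differences were those of Rsad2, Gbp4 (191 and 237 CPM) and the nucleotide hydrolase gene Samhd1 (579 and 769.9 CPM). The interferon receptor genes themselves did not all stand lower in Gel50_CS50. Ifnar1 stood close, at 126 and 137 CPM, as did Ifngr1, at 693 and 698 CPM. Ifnar2, at 105 and 86.7 CPM, and Ifngr2, at 83.5 and 62.9 CPM, stood higher in Gel50_CS50. Whether receptor levels bear on the interferon-stimulated genes was not tested.

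**Figure D2:**
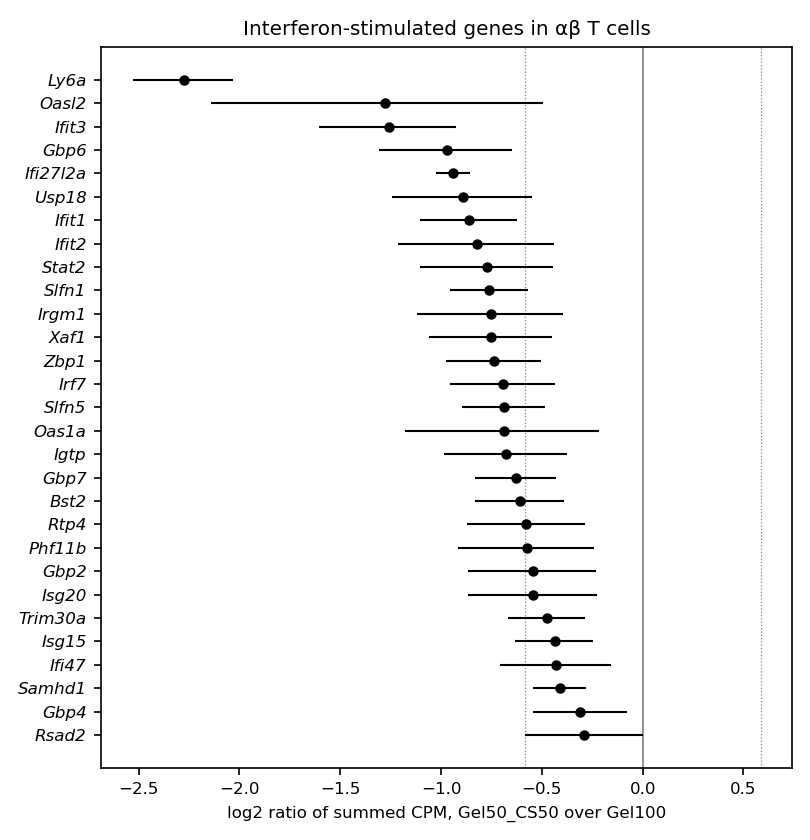
Log2 ratio of summed CPM in αβ T cells, Gel50_CS50 over Gel100, for 29 of 30 interferon-stimulated genes with exact 95% intervals of counting error; the solid line is equality and dotted lines are 1.5-fold. All 29 points lie left of equality, from Ly6a at -2.28 to Rsad2 at -0.29.

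The difference was also seen cell by cell. The 30 genes together took a median of 48.3 of every 10000 UMIs in a Gel50_CS50 member (3.65 to 244) and 95.5 in a Gel100 member (4.42 to 372), so the ranges overlapped widely. In Cd4 cells the medians were 53.6 and 110.5, in Cd8 cells 48.6 and 79.2, and in cells with neither 38.9 and 95.5. By summed CPM the list was lower in 30 of 30 genes in Cd4 cells (median log2 ratio -0.99), in 29 of 30 in cells with neither (-0.75) and in 24 of 30 in Cd8 cells (-0.33). Over all genes these medians were -0.03, -0.01 and -0.03. In Cd8 cells Slfn5, a Schlafen family gene, was the exception with the largest size, at 274 CPM in Gel50_CS50 and 157 CPM in Gel100, whereas Ly6a (221 and 620.3 CPM) and Ifi27l2a (822 and 1566 CPM) were lower there as well. Whether the subsets differ in this respect was not tested.

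The lower level was not limited to the members. The median per 10000 UMIs was 90.1 in Gel50_CS50 and 179 in Gel100 Foxp3 cells, 34.2 and 72.8 in cells with Trdc or Cd163l1, 26.9 and 51.3 in Ncr1 cells, 69.0 and 132 in macrophage-like cells, and 129.6 and 289 in neutrophil-like cells. Free RNA from other cells bears on such a comparison, so 2 sets of genes were set against macrophage-like cells, leaving out members rich in macrophage genes. In Gel50_CS50 members 7 macrophage genes stood at 1.72 to 4.66% of their macrophage-like level, and the 30 interferon-stimulated genes at a median of 87.2% (5.74 to 1412%). In Gel100 members the macrophage genes stood at 1.21 to 4.25% and the interferon-stimulated genes at 75.8% (13.4 to 321%). Ly6a stood lower in Gel50_CS50 in each of these classes too, for example at 241 and 488 CPM in Ncr1 cells and at 1540.0 and 2878 CPM in Foxp3 cells.

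**Figure D3:**
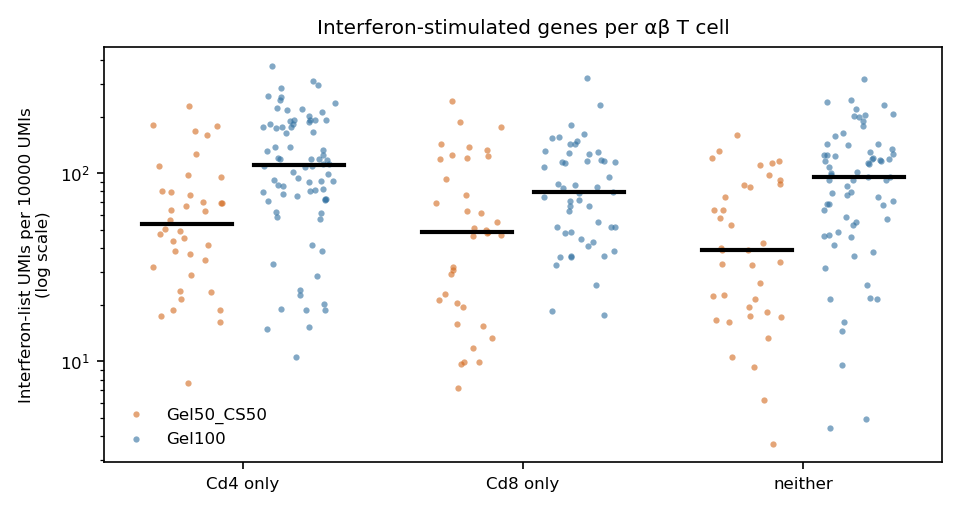
UMIs of 30 interferon-stimulated genes per 10000 UMIs (log scale) in each αβ T cell, by coreceptor transcripts, with Gel50_CS50 left of Gel100; black lines are medians. The medians are 53.6 and 110.5 in Cd4 cells, 48.6 and 79.2 in Cd8 cells, and 38.9 and 95.5 in cells with neither, and the points overlap.

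Genes of MHC class I presentation, which interferons also raise, were lower in Gel50_CS50 members by a smaller amount. All 17 stood lower, 16 of them with an interval that excluded equality. Below 1/1.5 lay 1 of 17, beside 5.72% of all genes. This was Tap2, a subunit of the peptide transporter, at 78.5 and 123 CPM. The list had a median of -0.46. B2m, the light chain of class I molecules, stood at 2016 CPM in Gel50_CS50 and 2539 CPM in Gel100 (-0.33, -0.40 to -0.26), H2-K1 at 1151 and 1513 CPM, and Nlrc5, which switches class I genes on, at 243 and 343 CPM. The class I genes of the Q and T regions have near-identical copies, so their levels are uncertain. Of the other named genes lower in Gel50_CS50, Cxcl10, a chemokine induced by interferon gamma, stood at 76.0 and 216 CPM and was seen in 22 and 70 members. Ly6c1 (87.7 and 233 CPM), its relative Ly6c2 (308 and 657 CPM, 45 and 128 members) and Ifit3b (40.9 and 99.3 CPM) have close copies.

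The Th1 list, which describes CD4 T cells that make interferon gamma, had 2 of 9 genes below 1/1.5, beside 5.72% of all genes. Its median was -0.16. Ifng itself was among the genes below. Ifng stood at 34.2 CPM in Gel50_CS50 and 70.5 CPM in Gel100 (-1.04, -1.58 to -0.53), and was seen in 24 of 115 (20.9%) and 46 of 202 members (22.8%). The share of members with it was therefore close. In Cd8 cells 3 of 37 (8.11%) and 16 of 51 (31.4%) held it, while in cells with neither coreceptor 13 of 38 (34.2%) and 13 of 70 (18.6%) did. Ifng stood at 72.3 and 137 CPM in Ncr1 cells. The Th1 factor gene Tbx21 stood at 88.5 and 98.8 CPM, the chemokine receptor gene Cxcr3 at 71.0 and 90.7 CPM, and Stat4, which relays interleukin-12, at 886 and 761 CPM.

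Cd8 cells of the libraries differed in resting, cycling and killing genes. With 37 and 51 Cd8 cells, more genes passed the fold than over all members: of 6360 genes 13.8% lay above 1.5-fold and 16.2% below 1/1.5, and the median log2 ratio was -0.03. The list of naive and central memory genes had 8 of 10 above 1.5-fold in Gel50_CS50 Cd8 cells, and a median of 1.00. Lef1, a factor of resting T cells, stood at 698 CPM in Gel50_CS50 and 270 CPM in Gel100 Cd8 cells. Ccr7, which guides cells to lymph nodes, stood at 147 and 76.9 CPM, and S1pr1, which guides cells out of tissue, at 144 and 60.6 CPM. Lef1 was seen in 23 of 37 and 32 of 51 Cd8 cells, so the share of cells with it was close. Klf2 stood at 283 and 177 CPM, and Dapl1, the exception, at 29.5 and 72.0 CPM.

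All 9 measured cell cycle genes stood lower in Gel50_CS50 Cd8 cells, 8 of them below 1/1.5 beside 16.2% of all genes, with a median of -2.17. Mki67, a proliferation marker, stood at 109 CPM in 4 of 37 cells and 399 CPM in 13 of 51 cells. Stmn1, a tubulin-binding gene of dividing cells, stood at 5.89 and 152 CPM, and Hmgb2 at 279.8 and 1257 CPM. Mki67 or Top2a was seen in 6 of 37 (16.2%) and 21 of 51 (41.2%) Cd8 cells. The histone genes Hist1h2ap (8.84 and 316 CPM) and Hist1h1b (17.7 and 273 CPM) followed, each held by few cells: a single Gel100 member gave 35.5% and 44.3% of their Gel100 UMIs over all members. Hist1h2ap has near-identical copies. The drop was not particular to Cd8 cells. In Cd4 cells all 9 genes were lower in Gel50_CS50 as well, beside 52.9% of all genes, with a median of -0.91. In cells with neither coreceptor the direction was the other way. There 7 of 9 cell cycle genes were higher in Gel50_CS50, beside 48.9% of all genes. Mki67 stood there at 154 and 39.3 CPM, in 4 and 4 cells. Over all members the list had a median of -0.36, with Mki67 at 117 and 162 CPM in 14 and 30 cells.

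The cytotoxic list had all 10 measured genes lower in Gel50_CS50 Cd8 cells, 7 of them below 1/1.5 beside 16.2% of all genes, with a median of -0.83. Ccl5, a chemokine of memory Cd8 cells, stood at 1458 and 2705 CPM there and was seen in 21 of 37 and 43 of 51 cells. Nkg7, a granule gene, stood at 389 and 663 CPM, and Gzmk at 103 and 206 CPM. Gzmb, the killing protease granzyme B, stood at 191 and 311 CPM in Cd8 cells and at 27.2 and 173 CPM in Cd4 cells. Over all members 4 of 10 genes lay below 1/1.5, beside 5.72% of all genes, and the list median was -0.45. Thinned to 2000 UMIs per cell, 1 of 12 measured genes lay below and 2 above (median -0.13), beside 14.1% and 13.6% of all genes. With each cell weighted equally 2 of 11 lay below (-0.35), beside 5.79% of all genes. Klrk1, the receptor NKG2D, stood at 119 CPM in 35 Gel50_CS50 members and 241 CPM in 87 Gel100 members (-1.01, -1.29 to -0.74).

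The Cd8 cells included some with Cd8b1 and no Cd8a, 13 of 37 in Gel50_CS50 and 6 of 51 in Gel100. With Cd8a required, an alternative chosen after seeing the data, 24 and 45 cells were left and the same lists stood at 1.38 (naive and central memory), -2.24 (cell cycle), -0.98 (cytotoxic) and -0.30 (interferon-stimulated). Lef1 then stood at 668 and 228 CPM, in 18 of 24 and 27 of 45 cells, and Mki67 at 131 and 445 CPM, in 3 and 13 cells.

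**Figure D4:**
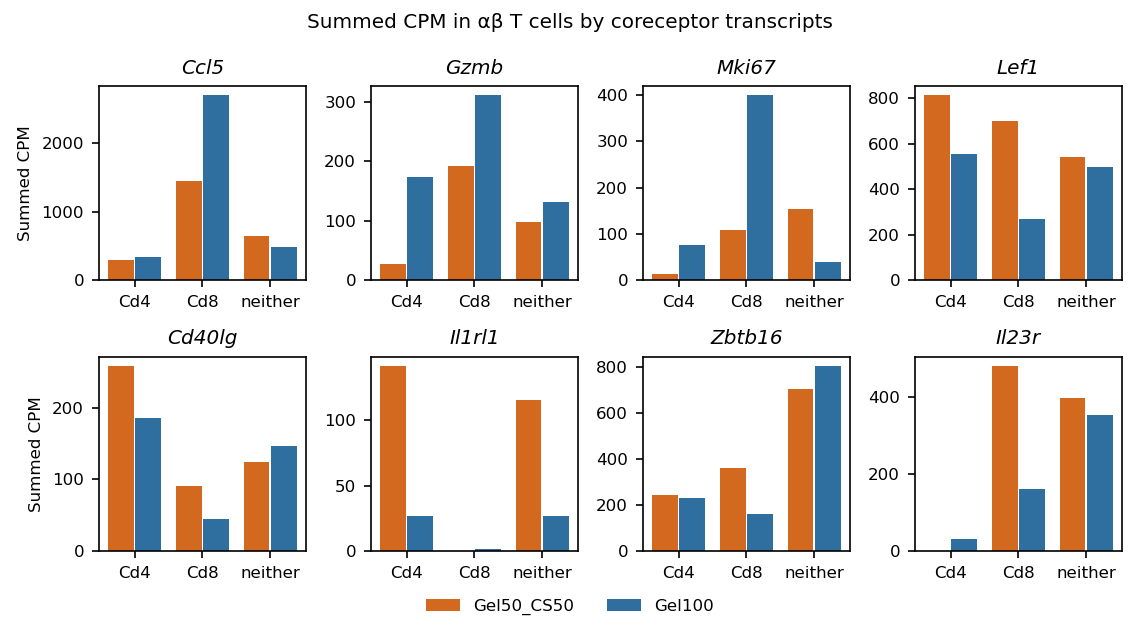
Summed CPM of 8 genes in αβ T cells with Cd4, Cd8 or neither transcript, Gel50_CS50 left of Gel100, each panel with its own axis from 0. In Cd8 cells Ccl5 (1458 and 2705 CPM), Gzmb and Mki67 (109 and 399 CPM) are lower and Lef1 (698 and 270 CPM) higher in Gel50_CS50, and Zbtb16 is highest in cells with neither in both libraries.

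Over all members the naive and central memory list had 3 of 10 genes above 1.5-fold and 1 below, beside 4% and 5.72% of all genes. Its median was 0.35. Lef1 stood at 652 CPM in Gel50_CS50 and 432 CPM in Gel100 (0.59, 0.45 to 0.73), and Ccr7 at 80.2 and 48.7 CPM (0.72, 0.30 to 1.14). Igfbp4 stood at 34.2 and 16.2 CPM in 13 and 14 members. Satb1, a chromatin organiser of T cells, stood at 1222 and 943 CPM (0.37), and Il7r, the receptor for the survival cytokine interleukin-7, at 1063 and 895 CPM (0.25).

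The Th2 list describes the interleukin-4 side of T help and tissue repair signals. It had 3 of 6 measured genes above 1.5-fold, beside 4% of all genes, and a median of 0.80, from few cells. Markers of group 2 innate lymphoid cells, which share Il1rl1, Gata3 and Areg with this list, summed to 322 and 166 CPM, and markers of regulatory T cells to 1384 and 1091 CPM; their part in the result was not tested. Il1rl1, the receptor for the alarmin interleukin-33, stood at 87.7 CPM in 13 Gel50_CS50 members and 18.2 CPM in 14 Gel100 members (2.26, 1.71 to 2.85), and 36.2% of its Gel50_CS50 UMIs came from a single cell. It was held mainly by Cd4 cells, with 10 of 38 and 11 of 78. In Foxp3 cells Il1rl1 stood at 364 and 136 CPM. Areg, a growth factor of tissue repair, stood at 72.6 CPM in 6 and 27.4 CPM in 11 members. Cd200r1, an inhibitory receptor, stood at 68.5 and 29.4 CPM, and the Th2 factor gene Gata3 at 130.3 and 105 CPM. Il4 (15.0 and 16.2 CPM) lay under the minimum of 20 CPM, Il5 was seen in 3 members and Il13 in 1 member of Gel50_CS50, and both were at 0 UMIs in Gel100 members.

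Summed over all members, T cell receptor signalling genes showed no difference beyond 1.5-fold. Of 15 genes of the receptor complex and its proximal kinases and adaptors, 0 lay beyond 1.5-fold in either direction (median -0.08), including the kinase genes Lck (307 and 324 CPM) and Zap70 (121 and 110.0 CPM). Of 9 measured genes that follow a recent receptor signal, 0 lay beyond 1.5-fold (median 0.03), with Nr4a3 at 453 and 349 CPM and Cd69 at 305 and 392 CPM. When thinned, 3 of these 9 lay below 1/1.5 and 0 above (median -0.08), beside 14.1% and 13.6% of all genes. With each cell weighted equally 1 of 9 lay below and 0 above (-0.21). By subset, 4 of 9 were higher in Gel50_CS50 in Cd4 cells, 1 of 9 in Cd8 cells and 6 of 9 in cells with neither. Over all members the oxidative phosphorylation, survival, adhesion, NF-kB, checkpoint, glycolysis and immediate-early lists also had 0 genes beyond 1.5-fold. Their medians ran from -0.21 (glycolysis) to 0.18 (immediate-early and heat shock). The glycolysis list depended on the weighting. With each cell weighted equally 5 of 15 genes lay below 1/1.5 (median -0.48), beside 5.79% of all genes. When thinned, 5 of 15 lay below (-0.40), beside 14.1% of all genes. For the lists that follow, 4% of all genes lay above 1.5-fold and 5.72% below 1/1.5. The tissue residency list had 2 of 9 genes below 1/1.5, Cd101 and Hopx, while Cxcr6, a chemokine receptor of tissue-resident cells, stood at 306 and 228 CPM. The effector and memory list had 1 of 13 genes below 1/1.5, Ly6c2, and a median of -0.05. Of the Th17 list 1 of 6 genes lay above 1.5-fold, Il23r (286 and 176 CPM). The chemokine receptor list had 2 of 12 above, Ccr7 and Cx3cr1 (28.4 and 13.7 CPM), and 1 below, Ccr9. The Ccr9 value rested on 1 Gel100 cell. Without the top cell of each gene Ccr9 stood at 7.57 and 4.65 CPM, a log2 ratio of 0.70. With each cell weighted equally its log2 ratio was 0.07. Ccr9 is also on the plasmacytoid dendritic cell marker list. The follicular helper list had 0 of 3 genes beyond 1.5-fold, and the innate-like list 1 of 2 above, which was Fcer1g; without the called doublets 0 of 2 lay above.

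**Figure D5:**
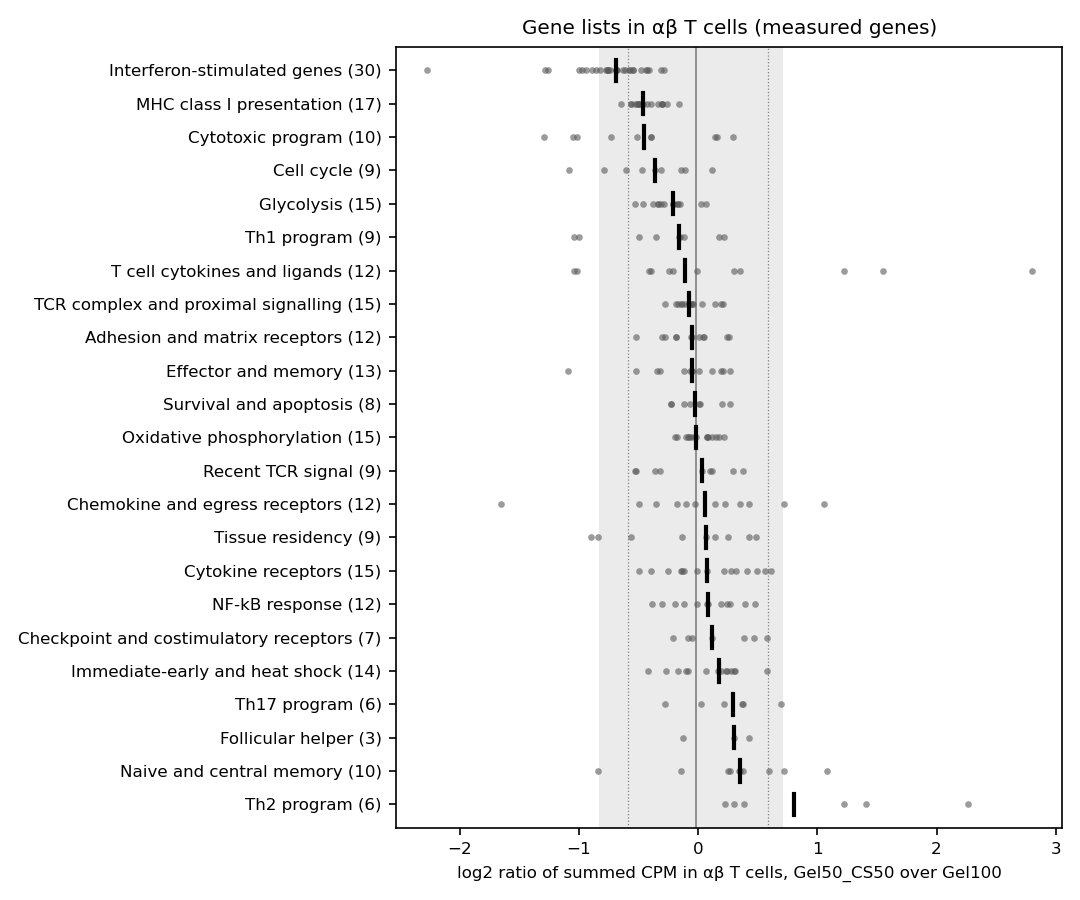
Log2 ratio of summed CPM in αβ T cells, Gel50_CS50 over Gel100, for each measured gene (points) of 23 lists, with list medians (black bars) and the number of genes in brackets. The grey band holds the central 95% of all 6368 genes, the solid line their median of -0.02 and the dotted lines 1.5-fold; the interferon-stimulated list sits lowest, with a median of -0.69, and the Th2 list highest, at 0.80.

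Of the cytokines and ligands, 3 of 12 measured genes lay above 1.5-fold and 2 below, beside 4% and 5.72% of all genes. Xcl1, a chemokine for cross-presenting dendritic cells, stood at 141 CPM in 16 Gel50_CS50 members and 48.2 CPM in 26 Gel100 members, mostly in cells with neither coreceptor (343 and 101 CPM). Ccl4, a chemokine that attracts immune cells, stood at 139 and 59.8 CPM, and Ccl3 at 63.5 and 9.12 CPM with 73.7% of its Gel50_CS50 UMIs in a single cell. Tnfsf8, the ligand of CD30, was lower at 40.9 and 82.6 CPM. Tnfsf11, which encodes RANKL, stood at 90.2 CPM in 16 and 90.7 CPM in 29 members. Csf1, the macrophage growth factor, lay at 4.17 CPM in 3 Gel50_CS50 members and 33.5 CPM in 26 Gel100 members. Tgfb1 stood at 206 and 161 CPM, and Ltb, lymphotoxin beta, at 615 and 816 CPM. Il17a or Il17f was seen in 4 and 8 members. Among receptors, Il2ra, the high-affinity chain for interleukin-2, stood at 262 and 171 CPM (0.61, 0.39 to 0.84) and was the sole gene of 15 cytokine receptor genes beyond 1.5-fold.

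Several of the genes with the highest ratios are genes that macrophages express, and for most of them a single barcode held over 50% of the Gel50_CS50 UMIs. Saa3 (221 and 23.3 CPM), Apoe (1099 and 212 CPM), Spp1 (212 and 41.6 CPM), Cxcl2 (281 and 70.5 CPM), Lyz2 (768 and 254 CPM), Ctsl (184 and 66.9 CPM) and Fcer1g (208 and 77.0 CPM) were named by their ratios in Gel50_CS50 over Gel100. A Gel50_CS50 member with 31189 UMIs, which Scrublet called a doublet, held 92.5% of the Spp1, 76.8% of the Apoe, 70.5% of the Ctsl, 68.7% of the Saa3, 55.2% of the Lyz2 and 34.9% of the Fcer1g UMIs, and 5.72% of its UMIs were in the macrophage marker list. The median member held 0.0772% and 0.0578% there. In Gel100, 1 member held 2.32% macrophage genes and another, with 50221 UMIs, 1.32% stromal genes. By summed CPM over all members, the macrophage markers stood at 2332 in Gel50_CS50 and 758.3 in Gel100, the neutrophil markers at 53.4 and 24.3, the stromal markers at 229.6 and 413, the plasmacytoid dendritic cell markers at 232 and 509, the conventional dendritic cell markers at 89.3 and 108, and the B cell markers at 39.2 and 46.6. The NK cell markers stood at 349 and 262, of which Fcer1g gave 208 and 77.0. The γδ T markers stood at 158 and 165 and the endothelial markers at 215 and 269.7. The erythroid and platelet markers stood at 39.2 and 9.63, with 5 of 6 genes at 0 UMIs in both libraries. Without these 3 cells the log2 ratio was -0.56 for Spp1, -0.05 for Ctsl, 0.73 for Apoe, 0.79 for Lyz2, 0.83 for Fcer1g, 1.60 for Saa3 and 1.79 for Cxcl2 (249 and 72.2 CPM), and the interferon-stimulated list had a median of -0.80. Lyz2 was seen in 104 of 115 and 167 of 202 members, and stood at 14730.5 and 10893 CPM in macrophage-like cells. Of the genes named as lower, Tcf4, Fmnl2 and Nedd4 drew 73.6%, 70.4% and 46.1% of their Gel100 UMIs from 1 cell each. The ribosomal protein gene Rpl29 (38.4 and 110.0 CPM) and the long noncoding RNA A330040F15Rik (100.2 and 252 CPM) also stood lower in Gel50_CS50 macrophage-like cells, at 22.4 and 58.8 CPM and at 21.9 and 64.3 CPM. The kinase gene Mapk10 (82.7 and 35.0 CPM) was seen in 6 and 13 members.

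Within each library the Cd4 and Cd8 cells differed in genes that did not define them. Of 6365 genes, 4.52% lay above 1.5-fold and 4.26% below 1/1.5 in both libraries. Cd5, a brake on receptor signals, stood at 375 CPM in Cd4 and 124 CPM in Cd8 cells of Gel50_CS50, and at 329.9 and 99.8 CPM in those of Gel100. Tbc1d4, which controls glucose transporter traffic, stood at 245 and 53.0 CPM in Gel50_CS50 and at 314 and 85.1 CPM in Gel100. Cd40lg, the ligand by which CD4 T cells help B cells and macrophages, stood at 258 and 91.3 CPM in Gel50_CS50 and at 185 and 44.2 CPM in Gel100. Higher in Cd4 cells were also Ipmk, Ifi202b, Tnfsf8, Il1rl1, Areg and Rab27b, of which Rab27b was seen in 1 and 5 Cd4 cells. The noncoding gene Gm44174 was seen in 0 Cd4 cells of either library and in 20 of 37 and 41 of 51 Cd8 cells. It lies at chr6:71353035-71373284 (mm10), on the plus strand between Cd8b1 (chr6:71322788-71337494) and Cd8a (chr6:71373427-71379173), so reads of these neighbours may be shared. Lower in Cd4 cells were further Pclaf, Cers6, Plekhg1, Mapk10, 5830411N06Rik, Il1r1 and Il23r. Mapk10 was seen in 1 Cd8 cell of each library, and Il1r1, the interleukin-1 receptor, stood at 13.6 CPM in Cd4 and 329.9 CPM in Cd8 cells of Gel50_CS50, and at 17.9 and 96.6 CPM in those of Gel100. Few Cd8 cells held these genes. Il1r1 was seen in 4 Gel50_CS50 and 4 Gel100 cells with Cd8a, and in 4 and 2 with Cd8b1 and no Cd8a. Pclaf was seen in 1 and 7 cells with Cd8a and in 0 of the others.

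Cells with neither coreceptor transcript stood apart by Zbtb16. Over all genes, 5.86% lay above and 4.02% below 1.5-fold in both libraries against Cd4 cells, and 5.88% and 3.44% against Cd8 cells. It was seen in 28 of 38 (73.7%, 56.9 to 86.6%) of these cells in Gel50_CS50 and in 44 of 70 (62.9%) in Gel100, against 7 of 38 and 15 of 78 Cd4 cells and 8 of 37 and 7 of 51 Cd8 cells. Its level was 703 CPM in Gel50_CS50 and 804 CPM in Gel100 in cells with neither, against 242 and 229.9 CPM in Cd4 cells. Background was lower, at 3.57 and 2.94 CPM in macrophage-like cells. Il23r, the receptor for interleukin-23, stood at 398 and 354 CPM in cells with neither and at 587 and 405 CPM in cells with Trdc or Cd163l1. A γ chain constant gene was seen in 17 of 38 and 37 of 70 of the cells with neither and in 7 of 38 and 12 of 78 Cd4 cells, and NK genes in 4 and 11 of the cells with neither. Their Trac level was 245 and 322 CPM, below the 362 and 442 CPM of Cd4 cells. A missed Cd4 or Cd8 transcript, a missed Trdc transcript and an αβ T cell without coreceptor cannot be told apart in these cells.

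Against Ncr1 cells, the members were set apart in both libraries by Themis, Cd5, Cd6, Slamf1, Bcl11b, Il23r, Ramp3 and Lhfpl3. The rule removed Ncr1 and CD3 genes from one side each, so this is a description. Cd5 stood at 205 and 179 CPM in members and at 0.613 and 1.09 CPM in Ncr1 cells. On the other side were Gzma, Aoah, Dscam, Ebf1, Serpinb9b, Styk1, Adamts14 and Tnfaip6. Gzma, granzyme A, stood at 19.2 CPM in 8 Gel50_CS50 and 47.1 CPM in 17 Gel100 members, and at 2308 and 3094 CPM in Ncr1 cells.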

How the data were processed

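Per the file headers, Cell Ranger 6.0.2 made the deposited matrices, which hold raw UMI counts for each gene in each barcode. The mouse build mm10 is named in the submitters' processing notes. The matrices hold 7515 Gel50_CS50 and 7845 Gel100 barcodes and 32285 genes, of which 99.8% were found in GENCODE vM21, the source of gene positions. The members and gene lists were chosen with earlier results of these data known. Doublets were called with Scrublet (scanpy 1.11.5, expected rate 0.06; 2.60% and 2.30% of the barcodes with at least 500 UMIs and 200 genes, including 2 and 1 members) and were kept in. Counts were summed over members and scaled to 1e+06 (CPM). Log2 ratios have exact conditional binomial 95% intervals and shares exact Clopper-Pearson intervals, both covering counting error only. Both were tested on data simulated with counting error only. That test could not show how the intervals hold where cells differ from each other. A floor of 3 counts stood in for a count of 0 in the flagged genes of opposite direction only. In the count of genes past the fold in Cd8 cells, a gene at 0 in 1 library counted as past it. Some members of the lists are counted but not reported by name here. No p-value was computed, since each group is 1 library. The text names the 12 genes of highest and the 12 of lowest ratio where the mean reached 50 CPM and the whole interval lay beyond 1.5-fold, and 8 each way for Cd4 over Cd8 cells and for members over Ncr1 cells; others are from the lists. Csf1, whose mean lay under 20 CPM, Slfn5 and the 3 genes of opposite direction were chosen after their values were seen. Macrophage-like cells had at least 2 Csf1r UMIs and neutrophil-like cells at least 2% S100a8 and S100a9, both without CD3 UMIs. Thinning drew each cell to 2000 UMIs without replacement. Alternatives changed the cell filters, doublets, weighting, CPM minimum, subset mix and centring. Scripts ran in Python 3.11.15 with scipy 1.17.1, numpy 2.4.6, matplotlib 3.10.9 and pandas 2.3.3.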

Additional observations from a re-analysis of the deposited data

Results flagged for a closer look

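In 3 genes the ratio of Gel50_CS50 over Gel100 pointed in opposite directions in Cd4 and Cd8 cells, with both intervals wholly beyond 1.5-fold. The differences were not tested between pools and rest on few cells. Il23r, the interleukin-23 receptor gene, was at 0 of 38 Gel50_CS50 Cd4 cells and at 29.9 CPM in 2 Gel100 Cd4 cells, and at 480.1 and 160.4 CPM in 8 and 7 Cd8 cells. With the floor of 3 counts (8.15 CPM) in place of 0, the log2 ratio in Cd4 minus that in Cd8 cells was -3.45. This is an upper bound of the point value only and does not cover counting error. Tmem176b, a membrane protein gene, stood at 16.3 and 62.7 CPM in 4 and 13 Cd4 cells and at 171 and 45.8 CPM in 8 and 8 Cd8 cells, a difference of -3.84. Pde7b, a phosphodiesterase gene, stood at 5.44 and 53.7 CPM in 2 and 9 Cd4 cells and at 79.5 and 24.5 CPM in 4 and 5 Cd8 cells, a difference of -5.00. The Cd8 direction of Il23r and Pde7b was that of the cells with Cd8a, at 545 and 137 CPM and at 102 and 23.7 CPM. In the 13 and 6 Cd8 cells with Cd8b1 and no Cd8a it was the other way, at 314 and 365 CPM for Il23r in 4 and 2 cells and at 20.9 and 31.7 CPM for Pde7b in 1 and 1 cell.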

How the results depend on the processing

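No paired analysis was possible because each group is 1 library and the number the titles share pairs nothing within it. The interferon-stimulated list stayed at a median between -0.80 and -0.65 under every alternative run, and its values furthest from -0.69 were -0.77 without doublets, -0.77 without members with NK genes, -0.80 without the 3 members rich in other cells' genes, and -0.77 without the top cell of each gene (the last 2 chosen after seeing the data). Thinned to 2000 UMIs, the Cd4 shares were 19.1% and 19.7% and the Gel50_CS50 Cd8 share 19.1%. Genes above 1.5-fold numbered 853 when thinned, 162 without the top cell of each gene, 80 and 27 with minimums of 50 and 100 CPM and 2435 with none; genes below 1/1.5 numbered 885, 388, 138, 55 and 2173. The CPM minimum sets how many genes are compared, and thinning how few UMIs stand behind each. Spp1 reversed to -1.35 without doublets, -1.38 without members with NK genes, -0.56 without mixed members and -0.84 without top cells, and Ctsl reversed to -0.13 without doublets, -0.27 without members with NK genes, -0.046 without mixed members and -0.077 without top cells; a single doublet held most of both genes' UMIs. Nedd4 reversed to 0.20 when thinned; the cause was not tested. The Th2 median ranged from 0.31 to 0.90 and the naive and central memory median from 0.21 to 0.59. With 115 and 202 cells, subset values rest on few cells and genes near 20 CPM on few UMIs (median gene, 71 and 119 UMIs).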

Other observations

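Variable segments of the T cell receptor were caught in some members. A Trbv gene was seen in 36 of 115 Gel50_CS50 and 41 of 202 Gel100 members, spread over 13 and 15 genes. The most frequent were Trbv13-2 in 9 Gel50_CS50 and Trbv20 in 9 Gel100 members. A Trav gene was seen in 29 and 56 members, over 20 and 30 genes. Traj18, the joining segment of the invariant receptor of natural killer T cells, was seen in 5 Gel50_CS50 and 3 Gel100 members, and Trav11, its partner segment, in 3 and 2. These genes are near-identical within families and the libraries held few of their reads, so the counts describe detection and not the repertoire.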
